A study of Rattus norvegicus with 151 samples.

Results

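The growth hormone and insulin-like growth factor (IGF) axis was followed through 10 genes: the growth hormone receptor Ghr, its signal carrier Stat5b, the quickly responding genes Cish, Socs2 and Bcl6, the growth factor Igf1, and the carriers of circulating IGF, Igfals, Igfbp3, Igfbp1 and Igfbp2. They were 10 genes chosen to stand for this axis among 14218 genes named on the array, and 15 probe sets carried them. Further genes of growth hormone and IGF signalling were on the array and are counted as a list below. Where a gene had several, its brightest in that tissue stood for it. All values are log2 signals from Affymetrix Rat Genome 230 2.0 arrays, on which a difference of 1 is a doubling.

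The arrays measured liver and kidney RNA of male Harlan Sprague-Dawley rats aged 6 to 8 weeks that had been dosed by gavage once a day for 5 days. The treated groups received MCHM (4-methylcyclohexanemethanol) or crude MCHM, the technical mixture that contains it, at 0.1, 1, 10, 100, 300 or 500 mg/kg, or PPH (propylene glycol phenyl ether) at 1, 10, 100, 500 or 1000 mg/kg. The reference for each chemical was its own group given the corn oil vehicle, which all treated groups received as well. A treated group held 4 arrays in liver (3 at 0.1 mg/kg crude MCHM) and 2 to 4 in kidney, and a vehicle group held 3 to 5. Dosing was done in the morning, and the labels do not give the hour at which each rat was killed. Each array carries a number in the labels, and the numbers recur in liver and kidney. The labels do not state that equal numbers mean the same animal, nor that replicates came from separate cages or litters. The p-values therefore measure the spread between these arrays.

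Growth hormone reaches the liver in pulses in male rats. It binds its receptor, the kinase JAK2 is switched on, and STAT5B moves to the nucleus, where it turns genes such as Igf1, Cish and Socs2 on and turns Bcl6 off. CIS and SOCS2, the products of Cish and Socs2, damp the signal again. IGF1 circulates mostly in a complex with IGFBP3 and the acid-labile subunit made from Igfals. IGFBP1, whose gene is repressed by insulin and rises in fasting, and IGFBP2 bind it in smaller complexes.

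The promoter of Cish is shown because it carries the letters that STAT5 binds more often than almost any other promoter of the rat genome. The RefSeq promoter table for build GRCr8 held 9 of the 10 genes. It gives 250 bases before the start of transcription and 50 after it. The motif searched was TTCNNNGAA, which reads the same on both strands. It occurred 4 times in the Cish promoter (chr8:116850719-116851018, plus strand) and in none of the other 8 promoters. At least 1 match was present in 8.87% of 33469 promoters, and at least 4 matches in 0.00598% of them, which was 2 promoters. The matches are in capitals below. The first 3 begin at positions -241, -230 and -136 and the last ends at -111, where -1 is the last base before the start. A match of letters is a description and not a measured binding site.
Cish promoter: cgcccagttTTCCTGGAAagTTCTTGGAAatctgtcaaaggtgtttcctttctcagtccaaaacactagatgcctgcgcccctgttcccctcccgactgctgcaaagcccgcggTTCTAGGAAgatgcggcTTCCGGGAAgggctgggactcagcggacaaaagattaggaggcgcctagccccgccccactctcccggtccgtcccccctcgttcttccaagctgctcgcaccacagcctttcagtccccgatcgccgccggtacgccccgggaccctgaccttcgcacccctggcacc

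The tissue labels held in the marker genes. In liver the mean of 7 hepatocyte markers lay between 12.96 and 13.50 over the highest dose and vehicle groups, while 5 of the 7 averaged below the level taken as measured in kidney (4.66). Values of 1 kidney (replicate 13, given 0.1 mg/kg MCHM) stood 1 row away from their names, and this array was left out. Markers of other tissues stood high in some kidneys, with no set limit. The hepatocyte marker mean was 7.03 in 1 kidney given 1 mg/kg crude MCHM and 6.29 in 1 vehicle kidney of the MCHM set (replicate 4), against a median of 3.94 over 69 kidneys. Fat cell markers reached 9.72 in 1 kidney given 300 mg/kg MCHM (replicate 36) and 8.77 in 1 given 500 mg/kg MCHM (replicate 42), against a median of 5.33. The next were 7.85 in a kidney given 10 mg/kg PPH and 7.78 in one given 1 mg/kg crude MCHM, and the last of these had the highest kidney Igf1, 9.89. The part of these tissues in the kidney values was not tested beyond leaving such kidneys out.

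The first question was where the axis was expressed in rats given vehicle alone. The 10 genes split by tissue. Ghr, Stat5b, Socs2, Igf1, Igfals and Igfbp1 were higher in liver than in kidney in all 3 vehicle sets, Igfbp2 was lower in liver in the crude MCHM and PPH sets, and Cish, Bcl6 and Igfbp3 passed in none. Over all genes tested, 76.9%, 75% and 77.7% differed between the tissues in the MCHM, crude MCHM and PPH sets. In the PPH set Igf1 averaged 13.24 ± 0.05 in liver and 8.34 ± 0.33 in kidney (SD, n = 5 each), a difference of 4.89 (SE 0.19). Igfals averaged 10.08 ± 0.25 in liver and 7.07 ± 0.12 in kidney, a difference of 3.01 (SE 0.11). These and Socs2 were the widest gaps between the tissues among the 10 genes in all 3 sets.

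Ghr averaged 11.93 ± 0.09 in vehicle livers and 9.50 ± 0.13 in vehicle kidneys of the same set, a difference of 2.43 (SE 0.08). Socs2 averaged 6.84 ± 0.84 in these livers and 3.89 ± 0.05 in these kidneys, where it was above the measured level in 0 of 69 arrays. The 9 other genes could therefore be tested in kidney. Igfbp3 averaged 10.00 ± 0.15 in liver and 10.23 ± 0.48 in kidney, Bcl6 8.24 ± 1.59 in liver and 7.95 ± 1.42 in kidney, and Cish 6.45 ± 1.03 in liver and 7.03 ± 1.08 in kidney, with adjusted p of 0.259, 0.729 and 0.453 in limma. The receptor and its feedback gene Socs2 were thus high in liver, while the carrier Igfbp3 and the genes Cish and Bcl6 lay at levels whose gap between tissues was within the spread of single arrays.

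Within treated and vehicle groups alike, a few of the genes varied far more than the rest. In liver the within-group SD, taken about the 20 group means, was 1.52 for Bcl6, the transcriptional repressor that growth hormone holds down. That was larger than in 99.96% of 11624 genes. It was 1.08 for Cish, 0.77 for Igfbp1, 0.67 for Socs2 and 0.49 for Igfbp2, larger than in 99.89%, 99.72%, 99.50% and 98.81% of genes. The median over all genes was 0.16. Over the 81 livers Bcl6 spanned a 40.3-fold range around a median of 7.86, Igfbp1 a 27.6-fold range around 9.90, and Cish, from 4.11 to 8.14, a 16.4-fold range around 6.09.

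Igf1, the main output of the axis, was at the other end. Its within-group SD in liver was 0.074, larger than in only 3.14% of genes, and it ran from 12.93 to 13.43, a 1.41-fold range. The 2 dimmer probe sets of Igf1 had liver SDs of 0.142 and 0.117, so its narrow spread was in part that of the probe set used, and all 3 were below the median over all genes. The SD was 0.10 for Ghr, 0.16 for Stat5b, 0.18 for Igfbp3 and 0.24 for Igfals. In kidney the SD was 1.17 for Bcl6 and 1.04 for Cish, larger than in 99.85% and 99.81% of 11501 genes, and Igf1, low there, had an SD of 0.48.

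The 5 vehicle livers of the MCHM set show this spread. Bcl6 stood at 5.43, 6.39, 6.96, 9.83 and 10.05 in them, and Socs2 at 6.50, 7.75, 7.92, 6.61 and 6.43 in the same order. Igf1 in the same 5 livers was 13.38, 13.32, 13.35, 13.18 and 13.30. Bcl6 thus spread widely among rats given vehicle alone, whereas the brightest Igf1 probe set ran from 13.18 to 13.38. Over all 81 livers the Bcl6 values had no wide break: the largest step between neighbouring values was 0.37.

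**Figure D1:**
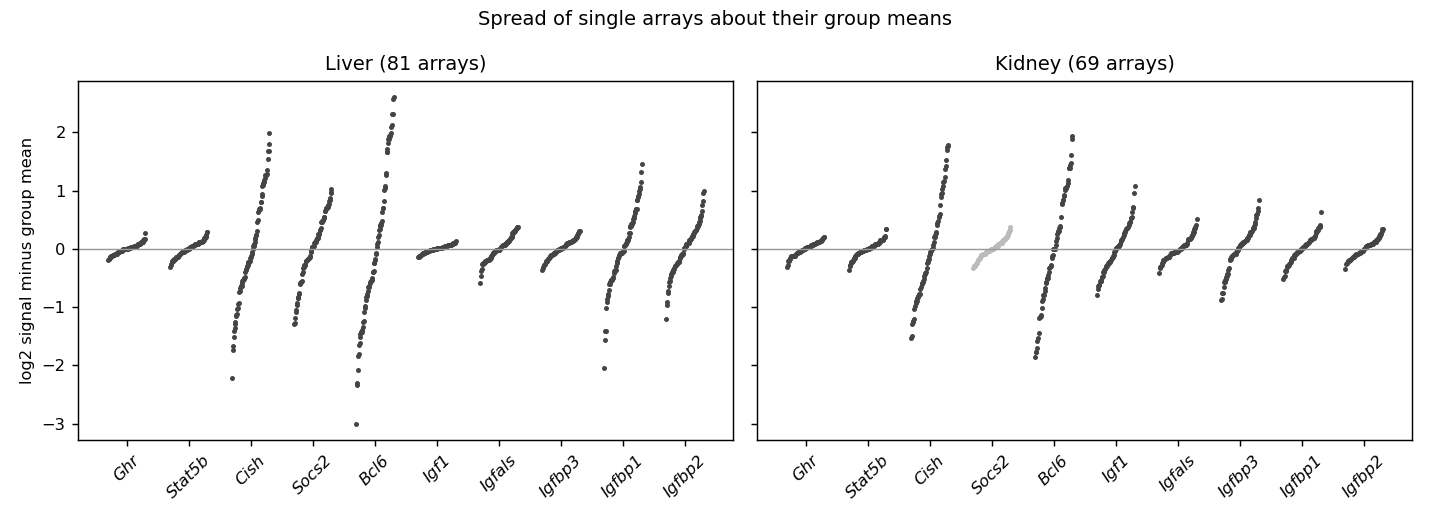
Each point is 1 array, plotted as its log2 signal minus the mean of its dose group (vertical axis), sorted within each of the 10 genes (horizontal axis), for 81 livers and 69 kidneys. Bcl6 and Cish spread over several log2 units in both tissues and liver Igf1 over less than 0.5; kidney Socs2, in pale grey, was below the level taken as measured.

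The second question was whether the variable genes moved together within groups, as far as 25 relations tested here can show. They were the pairs among Cish, Socs2, Bcl6, Igf1 and Igfbp1 in liver and in kidney, and each of these genes in liver against itself in kidney by label number. Values were taken as deviations from the group mean, p came from 100000 shuffles within groups (two-sided permutation test), and adjusted p is over the 25. After adjustment, 10 relations passed by Pearson's r. Where the 2 farthest arrays are left out below, they were those farthest from the median signal of a single gene. It was the gene of the pair that comes first in the order above, or the liver value where a gene is set against itself.

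Cish in liver followed Cish in kidney closely. Over 65 pairs of arrays with the same number, Pearson's r was 0.937 and Spearman's rho 0.946, each with a permutation p of 1e-05, the smallest the shuffles can give, and an adjusted p of 8.3e-05. Without the 2 livers farthest from the median r was 0.929. It was 0.937 within the MCHM set, 0.889 within crude MCHM and 0.960 within PPH. Bcl6 did the same, with r of 0.901 and rho of 0.886 over the 65 pairs (both permutation p 1e-05, adjusted 8.3e-05), 0.887 without the 2 farthest, and 0.933, 0.727 and 0.948 within the sets. Deviations in liver and kidney were thus positively related for both genes in each chemical set, least closely for Bcl6 in crude MCHM.

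Over all 11031 genes tested in both tissues, the median of this liver and kidney r was 0.079. Cish stood at rank 6 and Bcl6 at rank 14. Ranks 2 and 3 were RT1-Ba and RT1-Bb, class II genes of the rat major histocompatibility complex, at r of 0.980 and 0.967, named here after their values were seen. Igf1 had 0.345 (rho 0.343; permutation p 0.0186 and 0.0232; adjusted 0.0465 and 0.0581), made of 0.425, 0.079 and 0.471 in the MCHM, crude MCHM and PPH sets, and without the 2 farthest livers it no longer passed (0.352, adjusted p 0.0518). Igfbp1 had 0.318 (rho 0.218; permutation p 0.0314 and 0.127; adjusted 0.0713 and 0.227), with 0.509, 0.280 and 0.049 in the sets, and Ghr, described only, -0.15. Socs2, below the measured level in kidney, had 0.085 (rho 0.094; permutation p 0.6003 and 0.541; adjusted 0.790 and 0.644; -0.04, 0.270 and 0.113 within the sets). Among the 5 genes that varied most in liver, a strong link between organs was thus seen for Cish and Bcl6. It was not seen for Igfbp1, nor for Igfbp2, whose r was -0.06 as a description. For Socs2 it could not be judged, because its kidney values lay below the measured level.

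Within liver, Socs2 and Bcl6 ran opposite. Their r was -0.66 and rho -0.67 over 81 livers (both permutation p 1e-05, adjusted 8.3e-05), -0.66 without the 2 farthest livers, and -0.61, -0.68 and -0.72 within the MCHM, crude MCHM and PPH sets. Bcl6 was also opposite to Cish, more weakly: r was -0.36 in liver (rho -0.29; p 0.00503 and 0.0202; adjusted 0.0180 and 0.0561; -0.49, -0.26 and -0.28 within the sets) and -0.45 in kidney (rho -0.49; p 0.00157 and 0.00045; adjusted 0.00785 and 0.00225; -0.42, -0.83 and -0.34 within the sets). Without the 2 farthest arrays the kidney relation still passed (-0.43, adjusted p 0.0143 by permutation) and the liver relation did not (-0.32, adjusted p 0.0518). Cish and Socs2, both encoding damping proteins, had an r of 0.22 in liver (rho 0.20; p 0.0686 and 0.100; adjusted 0.128 and 0.193), made of 0.57 in the MCHM set, 0.08 in crude MCHM and 0.02 in PPH. The link of Bcl6 with Socs2 therefore held in each set, and one of Cish with Socs2 was not shown.

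**Figure D2:**
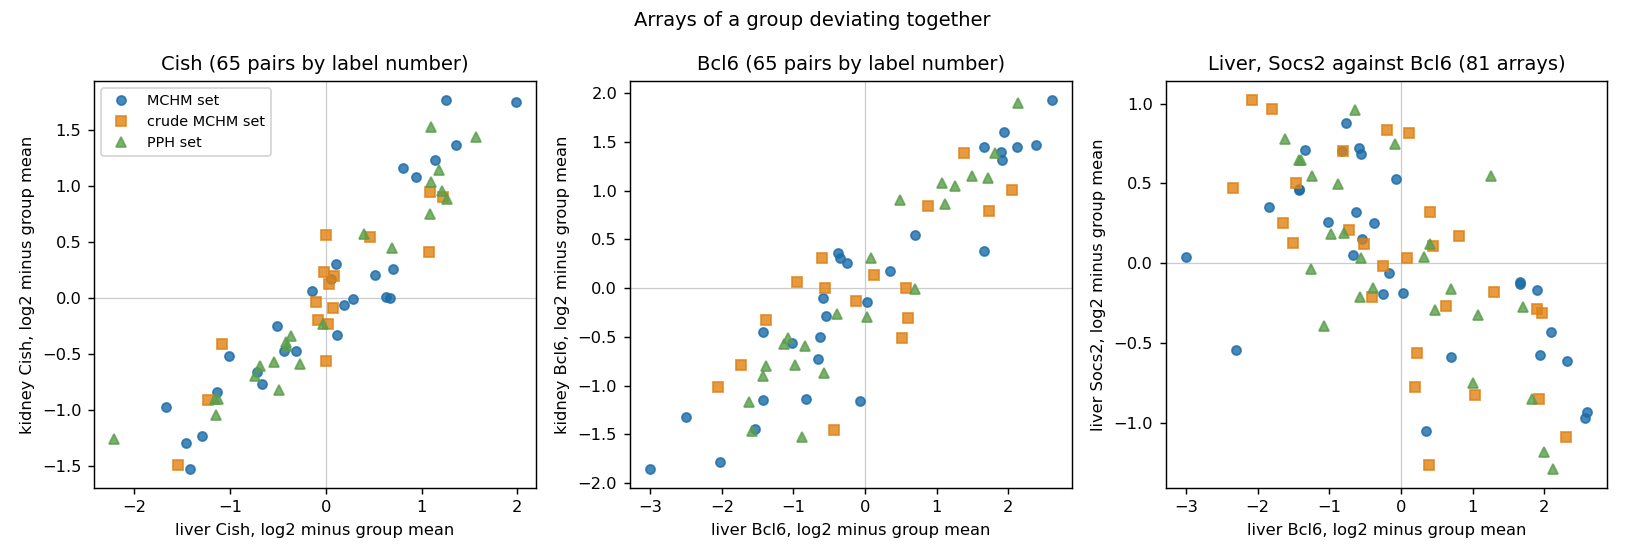
The left and middle panels plot each label number's liver value (horizontal) against its kidney value (vertical) for Cish and Bcl6. Values are log2 signal minus the group mean, over 65 pairs. The right panel plots Socs2 against Bcl6 in 81 livers. The r was 0.937, 0.901 and -0.66, and the 3 chemical sets, shown by colour and marker, lie on the same bands.

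Igfbp1, the insulin-repressed carrier, sorted with Bcl6 and against Socs2 and Igf1. In liver its r was 0.35 with Bcl6 (rho 0.36; permutation p 0.00851 and 0.00415; adjusted 0.0266 and 0.0173), -0.39 with Socs2 (rho -0.43; p 0.00142 and 0.00038; adjusted 0.00785 and 0.00225) and -0.32 with Igf1 (rho -0.31; p 0.0130 and 0.0147; adjusted 0.0362 and 0.0460). Its r with Cish was -0.04 (rho 0.01; p 0.739 and 0.936; adjusted 0.835 and 0.936). Within the MCHM, crude MCHM and PPH sets the relation with Bcl6 was 0.41, 0.13 and 0.54, that with Socs2 -0.37, -0.32 and -0.58, and that with Igf1 -0.45, -0.30 and -0.06. The next values leave out the 2 livers farthest from the median of the partner gene, not of Igfbp1. The relation with Socs2 was then -0.42. Those of Igfbp1 with Bcl6 (0.31, adjusted p 0.0645) and with Igf1 (-0.31, adjusted p 0.0554) no longer passed the permutation test. The 10th relation that passed was Socs2 with Igf1 in kidney, at -0.43 (rho -0.36; p 0.00233 and 0.0104; adjusted 0.00971 and 0.0371; -0.42, -0.43 and -0.45 within the sets; -0.39 without the 2 farthest kidneys), where Socs2 was above the measured level in 0 of 69 kidneys, so that nothing is read from it. Without the 4 kidneys named above for liver or fat markers it no longer passed (-0.32, adjusted p 0.0867 by permutation). The other 9 relations rest on genes measured in their tissue. Of these, Cish with Bcl6 in kidney and the liver and kidney relations of Cish, Bcl6 and Igf1 still passed without those 4 kidneys. The rest lie within liver and hold no kidney array, so leaving kidneys out does not test them.

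Among all 11624 liver genes, those most like Cish by within-group r over the 81 livers, given as a description, were Foxa2 (0.893), Hhex (0.854), Net1 (0.852), Rgs3 (0.844) and Irf2bpl (0.828). Foxa2 and Hhex encode transcription factors of endoderm and liver. The genes most opposite were Egfr (-0.74), Depp1 (-0.70), Lrig3 (-0.68), Bambi (-0.68) and Sik1 (-0.67), of which Egfr encodes the receptor of epidermal growth factor and Sik1 a kinase induced by salt and cyclic AMP. Cish itself was closest among the axis genes to Ghr (0.27, rank 831) and Socs2 (0.22, rank 1231). The same rule applied to Igfbp1, after its values were seen, put Igfbp2 at rank 2 with 0.610 and Igfals near the other end with -0.55. All these genes share the arrays and the rats, and so do the r values.

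Second probe sets allowed a check of these swings. The 2 probe sets of Cish deviated together, with a within-group r of 0.928 in liver and 0.961 in kidney. Those of Igfbp3 had 0.836 and 0.965, and the 3 of Igf1 had 0.581 to 0.730 in liver and 0.899 to 0.946 in kidney. The 2 probe sets of Ghr did not track each other: r was 0.129 in liver and 0.203 in kidney. Ghr is read into the full receptor and, in rodents, into a shorter transcript that encodes the growth hormone binding protein. Which form each probe set reads is not given in the sources used here.

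The third question was whether the chemicals changed the axis in liver. PPH at 1000 mg/kg lowered 4 of the 10 transcripts and raised none: the receptor Ghr, the growth factor Igf1, and the 2 partners that hold it in blood, Igfals and Igfbp3. Of 11342 genes tested, 1.75% were called in this comparison and 0.538% were called as fallen (limma, Benjamini-Hochberg adjusted p under 0.05). The median change was -0.24 over the 10 genes and 0.03 over all genes. In each of the 4 the treated livers all lay below all vehicle livers, which was so of 1.84% of all genes.

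Igf1 was 12.97, 12.97, 12.93 and 12.97 in livers given 1000 mg/kg PPH, against 13.23, 13.21, 13.24, 13.32 and 13.18 in vehicle livers. The treated livers lay within 0.04 of each other and apart from the vehicle livers. The change was -0.28 (SE 0.05), 1.21-fold lower, with an adjusted p of 0.00799 in limma. All 3 probe sets of Igf1 were called when probe sets were fitted singly, at -0.28, -0.44 and -0.33. The brightest one, used here, thus gave the smallest of the 3 changes.

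Igfals, the acid-labile subunit, was 9.52, 9.68, 9.52 and 9.44 at 1000 mg/kg PPH, against 9.87, 9.86, 10.14, 10.47 and 10.08 with vehicle. The groups did not overlap, and the change was -0.54 (SE 0.11), 1.46-fold lower, with an adjusted p of 0.0119 in limma. Igfbp3, the main carrier of IGF1 in blood, was 9.46, 9.30, 9.48 and 9.14 at 1000 mg/kg PPH, against 9.84, 9.91, 10.14, 9.93 and 10.17 with vehicle. It had the largest fall of the 10 genes, -0.66 (SE 0.13), 1.57-fold lower, with an adjusted p of 0.00883, and its second probe set gave -0.64. Ghr was 11.54, 11.66, 11.33 and 11.52 at this dose, against 11.95, 11.90, 12.05, 11.81 and 11.94 with vehicle. Its change was -0.42 (SE 0.08), 1.33-fold lower, with an adjusted p of 0.0107. The dimmer probe set of Ghr changed by -0.14 with an adjusted p of 0.640, so the fall was read by 1 of 2 probe sets. The fall in Ghr no longer passed without the treated liver at 11.33 (-0.36, adjusted p 0.0723 in limma) or when both probe sets were averaged (-0.28, adjusted p 0.0647), whereas the other 3 passed with any 1 array left out.

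Igfbp1 moved the other way without passing the test. It was 11.21, 11.10, 10.30 and 10.11 at 1000 mg/kg PPH, against 10.18, 10.51, 9.09, 8.76 and 9.58 with vehicle. The groups overlapped, and the difference was 1.05 (SE 0.35) with an adjusted p of 0.140 in limma. The other 5, Stat5b, Cish, Socs2, Bcl6 and Igfbp2, had adjusted p between 0.691 and 0.986. The pulse-sensitive genes Cish, Socs2 and Bcl6 had differences of -0.20, -0.31 and -0.07 with 95% intervals of -1.76 to 1.37, -1.18 to 0.56 and -1.77 to 1.64, wider than the changes of the 4 genes that fell.

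Over the PPH doses 3 of the 4 genes had a trend that passed the test. Igf1 averaged 13.24 with vehicle and then 13.19, 13.13, 13.12, 13.03 and 12.96 at 1, 10, 100, 500 and 1000 mg/kg. The trend over the rank of the dose was -0.05 per step (SE 0.01; adjusted p 0.00404 in limma). Igfals averaged 10.08 with vehicle and 9.98, 10.06, 9.78, 9.76 and 9.54 over the doses (trend -0.10 per step, SE 0.02; adjusted p 0.00684), and Igfbp3 10.00 with vehicle and 9.88, 9.85, 9.70, 9.69 and 9.34 (trend -0.11, SE 0.02; adjusted p 0.00991). These 3 were the genes of the axis called for a trend, where 1.32% of all genes were called. Ghr averaged 11.93 with vehicle and 11.79, 11.74, 11.82, 11.80 and 11.51 over the doses. Ghr was thus lower on average than vehicle at every dose, and lowest at the top dose. Its trend (-0.06, adjusted p 0.0540 in limma) and that of Igfbp1 (0.22, adjusted p 0.0662) were just outside the threshold. At 500 mg/kg alone none of the 10 was called by limma (3 at an unadjusted p under 0.05, beside 1365 of 11342 genes in all), where 0.0882% of all genes were, and at 10 mg/kg none, where 0.00882% were. Igf1 was then 13.06, 13.01, 13.09 and 12.97, against 13.18 to 13.32 with vehicle, a change of -0.20 (SE 0.05) with an adjusted p of 0.111. Below the highest doses of the 3 chemicals, 266 tests of the genes over both tissues gave 0 calls, 31 with an unadjusted p under 0.05 (2.88% to 14.1% of all genes per dose), and this 0.111 was the smallest adjusted p. At 300 mg/kg in liver 0.0265% of all genes were called with MCHM, 0.00882% as fallen, and 1.01% with crude MCHM.

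**Figure D3:**
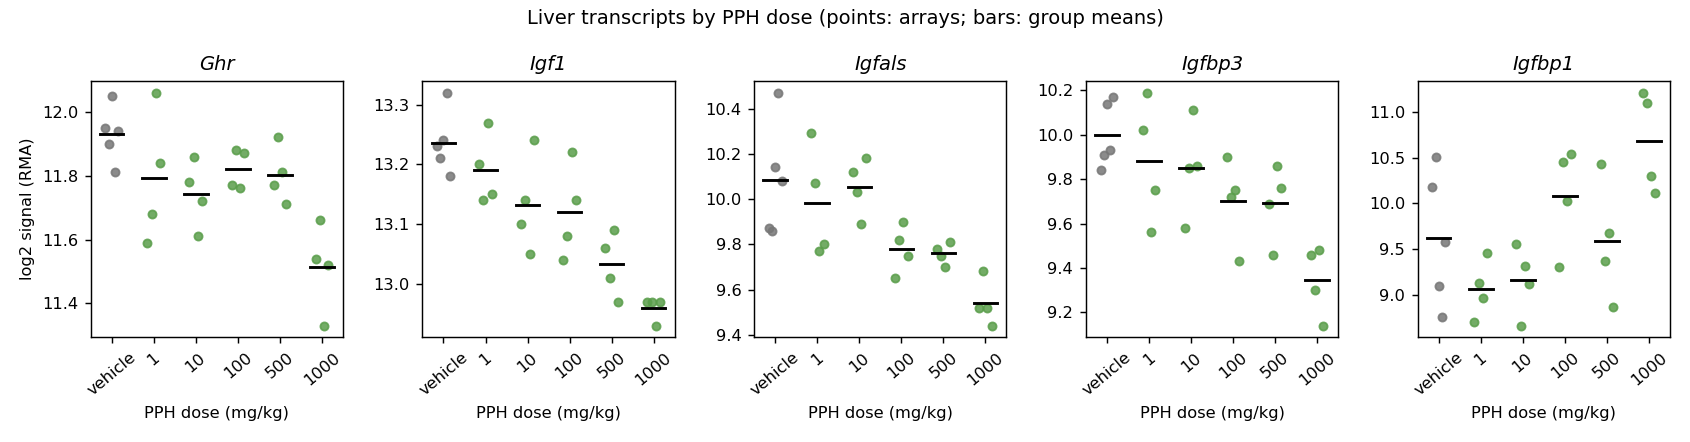
Liver log2 signals (vertical) of 5 genes by PPH dose in mg/kg (horizontal, vehicle in grey at the left); points are arrays and bars are group means. Ghr, Igf1, Igfals and Igfbp3 at 1000 mg/kg lie below every vehicle liver, at means of 11.51, 12.96, 9.54 and 9.34, while Igfbp1 overlaps its vehicle group.

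MCHM at 500 mg/kg lowered 1 of the 10, Ghr, where 0.512% of 11335 genes were called and 0.221% fell. It was 11.48, 11.53, 11.52 and 11.60 in the treated livers, against 11.78, 11.88, 11.80, 11.84 and 11.87 in vehicle livers. The groups did not overlap (2.86% of all genes lay apart in this direction), and the change was -0.30 (SE 0.07), 1.23-fold lower, with an adjusted p of 0.0380 in limma. The call was lost on leaving out any single array of the 2 groups, with adjusted p between 0.0520 and 0.106 and changes of -0.32 to -0.28. The trend over 6 doses was -0.05 per step (SE 0.01) with an adjusted p of 0.00328, where 2.38% of all genes were called and 1.53% as fallen, and it held with each array left out in turn (highest adjusted p 0.0111). Averaged over its 2 probe sets, Ghr changed by -0.18 with an adjusted p of 0.326.

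Crude MCHM at 500 mg/kg gave a Ghr difference of the same size that did not pass. The treated livers were at 11.51, 11.40, 11.53 and 11.60, against 11.68, 11.92, 11.81 and 11.84 with vehicle, a difference of -0.30 (SE 0.07) with an adjusted p of 0.0522 in limma. The groups did not overlap, as in 3.12% of all genes. It passed without the vehicle liver at 11.68 (-0.35, adjusted p 0.0252). None of the 10 genes was called by limma at 500 mg/kg crude MCHM (1 at an unadjusted p under 0.05, beside 13.4% of all genes), where 0.675% of 11402 genes were called. None was called for a trend (2 at an unadjusted p under 0.05, beside 16.6% of all genes), where 1.91% were. At the top dose of each of the 3 chemicals, Ghr was thus lower in every treated liver than in every vehicle liver, past the threshold for MCHM and PPH. Such a separation was not confined to top doses. It was narrow at 0.1 mg/kg crude MCHM (highest treated 11.679, lowest vehicle 11.6803) and at 10 mg/kg MCHM (11.7759 and 11.7771). At 300 mg/kg MCHM these values were 11.72 and 11.78. Ghr was not called by limma at any of these lower doses. The share of all genes lying apart was counted at the top doses only, so nothing is read from the separations below them.

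**Figure D4:**
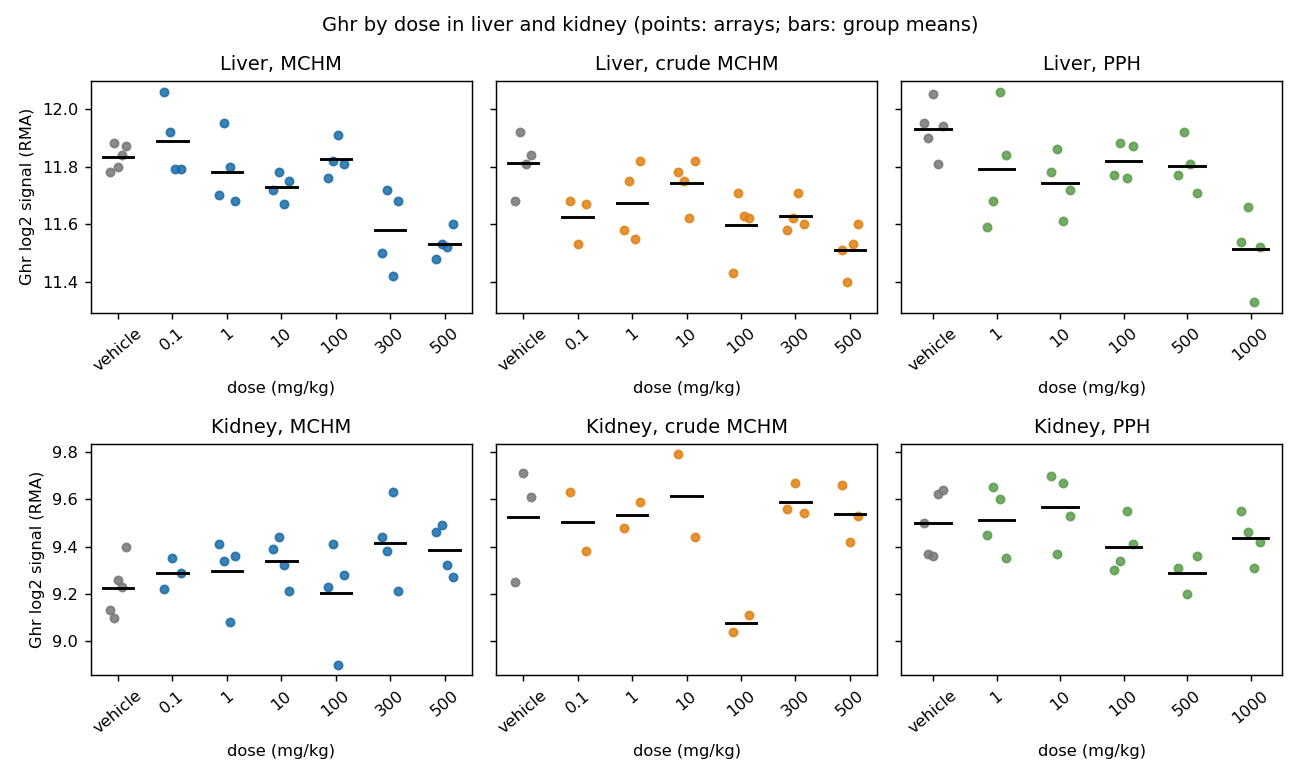
Ghr log2 signal (vertical) by dose in mg/kg (horizontal) for MCHM, crude MCHM and PPH in liver (upper row) and kidney (lower row); points are arrays, bars are group means and vehicle groups are grey. At the top dose the liver arrays of each set lie below all vehicle arrays, with means of 11.53, 11.51 and 11.51, and the kidney arrays overlap theirs.

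Igf1 at 500 mg/kg was 13.22, 13.13, 13.13 and 13.13 with MCHM, against 13.38, 13.18, 13.32, 13.35 and 13.30 with vehicle, a difference of -0.16 (SE 0.06) with an adjusted p of 0.215 in limma. With crude MCHM it was 13.14, 12.94, 13.17 and 13.03, against 13.13, 13.26, 13.15 and 13.24, a difference of -0.12 (SE 0.07) with an adjusted p of 0.449. Neither passed. With MCHM, Stat5b (-0.29, adjusted p 0.205), Socs2 (-0.89, adjusted p 0.302) and Igfbp3 (-0.19, adjusted p 0.407) were also short of the threshold in limma. In these and in Igf1, each of the 4 treated livers lay below the vehicle mean. The share of all genes for which this was so was not counted. At this dose 4 of the 10 genes had an unadjusted p under 0.05, beside 13.4% of all genes.

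At the dose that all 3 chemicals share, 500 mg/kg, no difference between chemicals in the liver response of the 10 genes passed the test. The PPH response of Ghr at this dose was -0.13 (SE 0.08, adjusted p 0.570). The difference in Ghr response was -0.17 for MCHM minus PPH (95% interval -0.37 to 0.03, adjusted p 0.572 in limma), -0.18 for crude MCHM minus PPH (-0.39 to 0.03, adjusted p 0.723) and 0.01 for MCHM minus crude MCHM (-0.20 to 0.21, adjusted p 0.997). For Igf1 the intervals were -0.10 to 0.20, -0.07 to 0.24 and -0.19 to 0.12. The 3 comparisons called 0.0344%, 0% and 0% of all genes, so a missed threshold here does not show that the chemicals acted alike.

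The vehicle groups themselves differed between sets, which bears on any comparison of levels across them. Stat5b in liver was 0.50 higher (SE 0.10) in the MCHM than in the PPH vehicle group (6.61 and 6.10, adjusted p 9.4e-05 in limma), where 17.4% of all genes differed. In kidney Ghr was lower in the MCHM vehicle group by 0.30 against crude MCHM and by 0.27 against PPH, with 22.3% and 31.5% of all genes called. The call against crude MCHM was lost on leaving out any of 4 single vehicle kidneys (adjusted p up to 0.253 in limma), and that against PPH with none of 10. Igfbp1 was also lower in the MCHM than in the crude MCHM vehicle kidneys (-0.58, adjusted p 0.0287), and lost its call in 3 of 8 such fits. Igfals (-0.43, adjusted p 0.0128) and Igfbp2 (-0.31, adjusted p 0.0352) were lower in the MCHM than in the PPH vehicle kidneys, and Igfbp2 lost its call in 6 of 10. Changes above are therefore always against a chemical's own vehicle.

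Fewer cells of a type and less RNA per cell cannot be told apart in such tissue samples. At 1000 mg/kg PPH the mean of the 7 hepatocyte markers was 13.16 to 13.34 in treated livers and 13.22 to 13.50 in vehicle livers. Of the 7, Apoa1 fell (-0.28, adjusted p 0.0417 in limma) and the other 6 were not called. The mean of 7 macrophage markers was 8.39 to 8.78 in treated and 8.73 to 9.17 in vehicle livers with none called. Their part in the falls was not tested. With the gap between 5' and 3' beta-actin probe sets, a sign of RNA quality, as a covariate, the same 4 genes were called at -0.38 for Ghr, -0.26 for Igf1, -0.55 for Igfals and -0.71 for Igfbp3.

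In kidney none of the genes was called by limma at any dose. Of the 9 tested, 1, 4 and 2 had an unadjusted p under 0.05 at 500 mg/kg MCHM, 500 mg/kg crude MCHM and 1000 mg/kg PPH, as did 1047 of 11277, 1406 of 11216 and 1739 of 11264 genes in all. After adjustment 0.0177%, 0% and 2.03% of all genes were called. Ghr was 9.55, 9.46, 9.31 and 9.42 at 1000 mg/kg PPH, against 9.50, 9.37, 9.36, 9.62 and 9.64 with vehicle, a difference of -0.07 (SE 0.08; adjusted p 0.773). Igf1 was 8.46, 8.47, 8.44 and 8.42, against 8.81, 8.31, 8.14, 8.51 and 7.95 (difference 0.10, SE 0.27; adjusted p 0.900). The groups overlapped for both genes, with 1 treated kidney below the vehicle range for Ghr. Over the PPH doses no trend was called in kidney (3 of 9 at an unadjusted p under 0.05, beside 1461 of 11264 genes in all), where 1.58% of all genes were.

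Igfals and Igfbp1 at 500 mg/kg crude MCHM were the genes tested in kidney whose groups did not overlap at a top dose, where 13.1% of all genes lay apart in that direction. Igfals was 6.71, 6.03 and 6.29, against 6.85, 7.39 and 6.83 with vehicle (difference -0.68, SE 0.24; adjusted p 0.310 in limma). Igfbp1 was 8.61, 8.14 and 8.15, against 8.90, 9.03 and 8.67 (difference -0.57, SE 0.21; adjusted p 0.324). Igfbp3 at 500 mg/kg MCHM was 10.45, 10.52, 10.74 and 9.81, against 10.54, 9.66, 9.60, 9.86 and 8.83 (difference 0.68, SE 0.29; adjusted p 0.465). The kidney numbered 42, which gave the 10.74, was the one high in fat cell markers.

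The liver and kidney responses were set against each other at the top doses in 1 fit of both tissues per chemical. The liver minus kidney difference in response was -0.46 for Ghr with MCHM (SE 0.12, adjusted p 0.104 in limma) and -0.35 with PPH (SE 0.12, adjusted p 0.165), -0.59 for Igfbp3 with PPH (SE 0.28, adjusted p 0.348) and -0.38 for Igf1 with PPH (SE 0.28, adjusted p 0.586). None of the 10 genes passed, where 0.0759%, 0.0587% and 0.748% of all genes did for MCHM, crude MCHM and PPH. A fall confined to liver was thus not shown for any of them.

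Calls among genes around the axis were few, as over all genes, of which 0.512%, 0.675% and 1.75% were called in liver at the top dose of MCHM, crude MCHM and PPH. Of 28 receptors, adaptors, phosphatases and binding proteins of growth hormone and IGF signalling on the array, including Igf1r, Jak2, Stat5a, Irs1 and Socs3, none was called in liver at the top dose of any chemical. Their median change was -0.03, -0.03 and -0.02 with MCHM, crude MCHM and PPH, beside 0.01, 0.01 and 0.03 over all genes. In kidney, where 2.03% of all genes were called with PPH, 1 of 25 tested fell, Igfbp5, an IGF binding protein of the extracellular matrix, at 11.23 ± 0.23 with 1000 mg/kg PPH (SD, n = 4) and 11.65 ± 0.18 with vehicle (SD, n = 5), a change of -0.43 (SE 0.11) with an adjusted p of 0.0491 in limma.

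Of 11 liver genes known as male-biased under pulsed growth hormone, 1 rose and none fell with each chemical, beside the same 0.512%, 0.675% and 1.75% of all genes called. It was Cyp3a18, a steroid and drug metabolizing cytochrome P450, with changes of 0.61 (SE 0.10), 0.55 (SE 0.10) and 0.48 (SE 0.10) at the top dose of MCHM, crude MCHM and PPH and adjusted p of 0.00328, 0.0105 and 0.0105 in limma. Of 10 female-biased genes 5, 5 and 6 could be tested and none was called, with medians of 0.08, 0.14 and 0.27. Of 7 genes of insulin and fasting, Tat, the tyrosine aminotransferase, rose with MCHM in liver (1.39, SE 0.30, adjusted p 0.0298), and Pck1, the gluconeogenic PEP carboxykinase, rose with PPH in kidney (0.52, SE 0.13, adjusted p 0.0323). Pck1 in liver with PPH was -0.41 (SE 0.16, adjusted p 0.225).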

How the data were processed

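The deposited values were used as log2 signals of 31099 probe sets that the authors had processed with RMA, per the submitters' processing notes, which give no version. Of these probe sets 20832 carried 1 gene symbol. The brightest probe set per gene and tissue was kept, and a gene was tested when above the tissue's 40th percentile of 4.69 in liver or 4.66 in kidney on 3 or more of a fit's arrays. limma 3.58.1 in R 4.3.3 (lmFit, eBayes, two-sided) compared each dose with its own vehicle in 6 fits, with a Benjamini-Hochberg adjustment over all genes tested and a threshold of 0.05. Of 151 arrays 150 were used. The kidney array left out had a median r of 0.952 with its set once moved by 1 row, and of 0.401 without that. Array medians lay between 5.22 and 5.38, and the number of arrays limits the precision.

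Equal label numbers in liver and kidney were checked as pairs over 11031 genes. The deviations correlated at a median r of 0.139 (-0.09 to 0.279) over 65 pairs. Of the 65 livers, 62 fitted the kidney of their own number best among the kidneys of their dose group. Named genes were the 10 members, the 5 genes nearest to and farthest from Cish by within-group r, and list genes called at a top dose. The members and lists were chosen with earlier results of these data known. Fits and the permutation test (numpy 2.4.6) were tested on simulated data. Alternatives were no filter, the mean of probe sets, a further quantile normalization, array weights, a joint fit, single arrays left out, a block on the label number and, added after seeing the data, a beta-actin covariate and leaving out 4 (for correlations also 6) kidneys high in liver or fat markers.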

Additional observations from a re-analysis of the deposited data

Results flagged for a closer look

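In 96 combinations of a gene and a vehicle or top-dose group of 4 or more arrays, 6 held an array set apart. The rule was a gap to its nearest neighbour that was wide for the range of the group. Chance gives about 1 in 20, which is close to the share found. In a tight group such a gap can be small. In liver, Igf1 was 13.22 in 1 liver given 500 mg/kg MCHM (replicate 40), against 13.13 in the other 3. It was 12.93 in 1 liver given 1000 mg/kg PPH, where the others had 12.97. Cish was 7.31 in 1 liver given 500 mg/kg crude MCHM (replicate 140), where the others had 5.48 to 5.66.

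In kidney, Igf1 was 9.40 in the vehicle kidney of the MCHM set numbered 5, where the others had 7.97 to 8.22. Its fat cell marker mean was 5.20 and its hepatocyte marker mean 3.77, against medians over all kidneys of 5.33 and 3.94. Igfals was 7.15 in vehicle kidney 3 of that set, where the others had 6.45 to 6.57. Igfbp1 was 8.64 in 1 kidney given 1000 mg/kg PPH, where the others had 8.96 to 8.99.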

How the results depend on the processing

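Over 59 counts (members called per comparison, and relations passed), 896 of 930 alternative values stayed within 1.5 times the main count, and no called change turned its sign. Most of these counts were 0 in the main fit, and a 0 that stays 0 says little about how firm a call is. The Ghr call at 500 mg/kg MCHM in liver passed in 0 of 9 fits with 1 array left out. The PPH calls of Igf1, Igfals and Igfbp3 passed in all 6 other processings and with each array left out.

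Members called at 500 mg/kg MCHM in liver were 1, and 0 with no filter or the mean of probe sets. The MCHM trend gave 2 with array weights or all sets in 1 fit (Igf1 joining Ghr), and 0 with the mean of probe sets. Crude MCHM at 500 mg/kg gave 1 (Ghr) with array weights, all sets in 1 fit, quantile normalization again or the beta-actin covariate, and its trend 1 with the first 3 of these. PPH at 500 mg/kg in liver gave 1 with all sets in 1 fit or the mean of probe sets, and crude MCHM at 500 mg/kg in kidney gave 1 (Igfals, -0.68, adjusted p 0.0260 in limma) with all sets in 1 fit. The cause was not tested.

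With single arrays left out, members called ranged from 0 to 0 at 500 mg/kg MCHM in liver, 0 to 1 for crude MCHM at 500 mg/kg and for its trend, 3 to 4 at 1000 mg/kg PPH and for its trend, 0 to 1 for liver vehicle groups of MCHM minus crude MCHM, and in kidney 0 to 3 for MCHM minus crude MCHM and 2 to 4 for MCHM minus PPH vehicle groups.

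Relations that passed numbered 10 and became 4, 2 and 4 in the MCHM, crude MCHM and PPH sets alone, which hold fewer arrays, and 6 without the 2 farthest arrays. Without the 4 kidneys high in other tissues, or 6 with the next 2 in fat markers (chosen after seeing the data), 9 passed, Socs2 with Igf1 in kidney being lost. The relations within liver hold no kidney array, so their r could not change here.

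With the replicate block in the liver and kidney fits, the response difference of Ghr was -0.46 with MCHM (adjusted p 0.0748 in limma) and -0.35 with PPH (0.116), members called stayed 0, and calls over all genes were 17, 48 and 152 for MCHM, crude MCHM and PPH, against 9, 7 and 89 without it. The labels do not say that a number marks an animal, and 48 rather than all of the 65 pairs correlated over 0.1, so the main fits carry no block, although 62 of 65 fitted their own number best. The liver and kidney correlations use the numbers as labels and share this doubt.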
